A study of Mus musculus with 12 samples.

Results

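The CC chemokine ligands described here are 10 mouse genes, Ccl1, Ccl2, Ccl3, Ccl4, Ccl5, Ccl6, Ccl8, Ccl9, Ccl12 and Ccl22, read by every probe set that the array annotation gives to 1 of these symbols alone. They had 12 probe sets among the 45037 on the array, because Ccl6 and Ccl9 had 2 each and the other genes 1, and they were 10 of the 18193 genes named by a probe set. RNA of 4 cell populations from mice of the strain background C57BL/10.RIII was hybridised to 12 Affymetrix arrays, 3 per population. Encephalitogenic T cells (EncT), which drive experimental autoimmune encephalomyelitis (a model of multiple sclerosis in mice), were labelled CD4+. Regulatory T cells labelled Treg were CD4+ and TGFbeta+. Cells called nFoxA1Treg were CD4hi and PD-L1hi, described as neuron induced in the titles and as natural in the cell type field. Cells called iFoxA1Treg were also CD4hi and PD-L1hi and had been induced with IFN-beta, an antiviral cytokine given to patients with multiple sclerosis. The labels give no age, sex, dose or time in culture. They number the replicates without tying them to different mice or cultures. The p-values therefore reflect the spread between arrays alone, and that spread may be technical.

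CC chemokines are small secreted proteins, named for a pair of adjacent cysteines, that bind G protein-coupled receptors and direct the movement of leukocytes along a gradient. Ccl2, Ccl8 and Ccl12 belong to the monocyte chemoattractant group, Ccl3, Ccl4 and Ccl5 are inflammatory ligands made by activated T cells and by macrophages, and Ccl6 and Ccl9 are rodent ligands of Ccr1 made mainly by myeloid cells. Ccl22, a product of dendritic cells and macrophages, attracts cells that carry Ccr4, regulatory T cells among them, and Ccl1, secreted by activated T cells, acts through Ccr8. In inflamed brain and spinal cord such ligands take part in drawing monocytes and T cells into the tissue.

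The 9 arrays labelled EncT, nFoxA1Treg and Treg had T cell transcripts at high levels. The 3 arrays labelled iFoxA1Treg had low Cd4, against their label of CD4hi. Cd4, the surface marker by which all 4 populations were described, had a normalized log2 value of 4.24 ± 0.10 (SD, n = 3) on the arrays labelled iFoxA1Treg and of 10.57 ± 0.017, 10.44 ± 0.068 and 10.39 ± 0.057 in EncT, nFoxA1Treg and Treg. All 11 T cell markers measured were lower on these arrays than in EncT, while 20 of 22 macrophage, microglia and monocyte markers, 11 of 11 B cell markers and 8 of 8 neutrophil markers were higher (limma, adjusted p under 0.05). Of all probe sets 22.1% were higher and 27.4% lower in this comparison. Xist, expressed by female cells, was at 2.11 ± 0.85 there against 11.07 to 11.52 in the other groups. The Y-linked Eif2s3y was at 9.66 ± 0.13 against -1.62 to 2.30. RNA levels that departed from a label were not limited to these arrays. The arrays read RNA, and the surface proteins that the labels name were not measured. Cd274, which encodes PD-L1, was at 10.01 ± 0.039 there. In nFoxA1Treg, also labelled PD-L1hi, it was at 7.34 ± 0.13, against 7.63 ± 0.16 in EncT and 7.31 ± 0.038 in Treg. Mean Foxa1 was below 4 in every group, at 2.31 in nFoxA1Treg, 1.97 in Treg and 0.82 on the arrays labelled iFoxA1Treg. Mean Foxp3, a marker of regulatory T cells, was 2.77 in Treg and 5.22 on the arrays labelled iFoxA1Treg. Correlations over all probe sets between an array labelled iFoxA1Treg and an array of another group ran from 0.694 to 0.735, against 0.822 to 0.846 between arrays of the other 3 groups. Comparisons with these arrays are therefore given as comparisons with the arrays labelled iFoxA1Treg, and calls of ligands and counts of listed genes among the other 3 groups are given with and without them in the fit where that changes them.

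In both regulatory groups with T cell transcripts few ligands differed from EncT, 2 lower in nFoxA1Treg and 1 higher and 1 lower in Treg. In nFoxA1Treg against EncT 2 of 12 probe sets passed the test, 0 higher and 2 lower (Ccl22 and the brighter Ccl6 probe set), against 8.67% of all probe sets (4.15% higher and 4.52% lower). In Treg against EncT 2 of 12 passed, Ccl2 higher and Ccl5 lower, against 6.86% of all probe sets (3.06% higher and 3.8% lower). Between nFoxA1Treg and Treg 0 of 12 passed by limma, with 2 at an unadjusted p under 0.05 and 0 called on the offset scale described next. Of all probe sets 0.0178% passed, and 0.0155% on the offset scale. The arrays labelled iFoxA1Treg had 10 probe sets higher and 2 lower than EncT, where 49.5% of all probe sets passed (22.1% higher and 27.4% lower). Against Treg 10 were higher and 1 lower, with 50.7% of all probe sets passing (22.7% higher and 28% lower). Against nFoxA1Treg 10 were higher and 1 lower, with 51% passing (22.4% higher and 28.6% lower). A call is an adjusted p under 0.05 in a limma fit over all 45037 probe sets. These comparisons share arrays, so their counts are not independent of each other. The arrays of nFoxA1Treg and EncT did not overlap, in either direction, for 24.5% of all probe sets. For Treg and EncT this share was 24.4%, and for nFoxA1Treg and Treg 10.8%. For the arrays labelled iFoxA1Treg it was 58% against EncT, 61.1% against Treg and 61.3% against nFoxA1Treg.

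All values below are quantile-normalized log2 values unless said otherwise. Below a log2 value of about 4 the deposited values scatter widely, down to -14.77, so differences that touch this range are also given on the offset scale log2(value + 16), which damps noise near the floor and understates changes of dim probe sets. The lowest level of the upper 60% of probe sets by mean over all arrays was 4.05. Of the 12 ligand probe sets 11 lay above it over all 12 arrays, but 9 did so over the 9 arrays other than iFoxA1Treg, because the brighter Ccl6 probe set and Ccl12 reached it only through the arrays labelled iFoxA1Treg. The tests use all probe sets, without that filter. In bulk RNA, fewer cells of a type and less RNA per cell cannot be told apart.

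**Figure D1:**
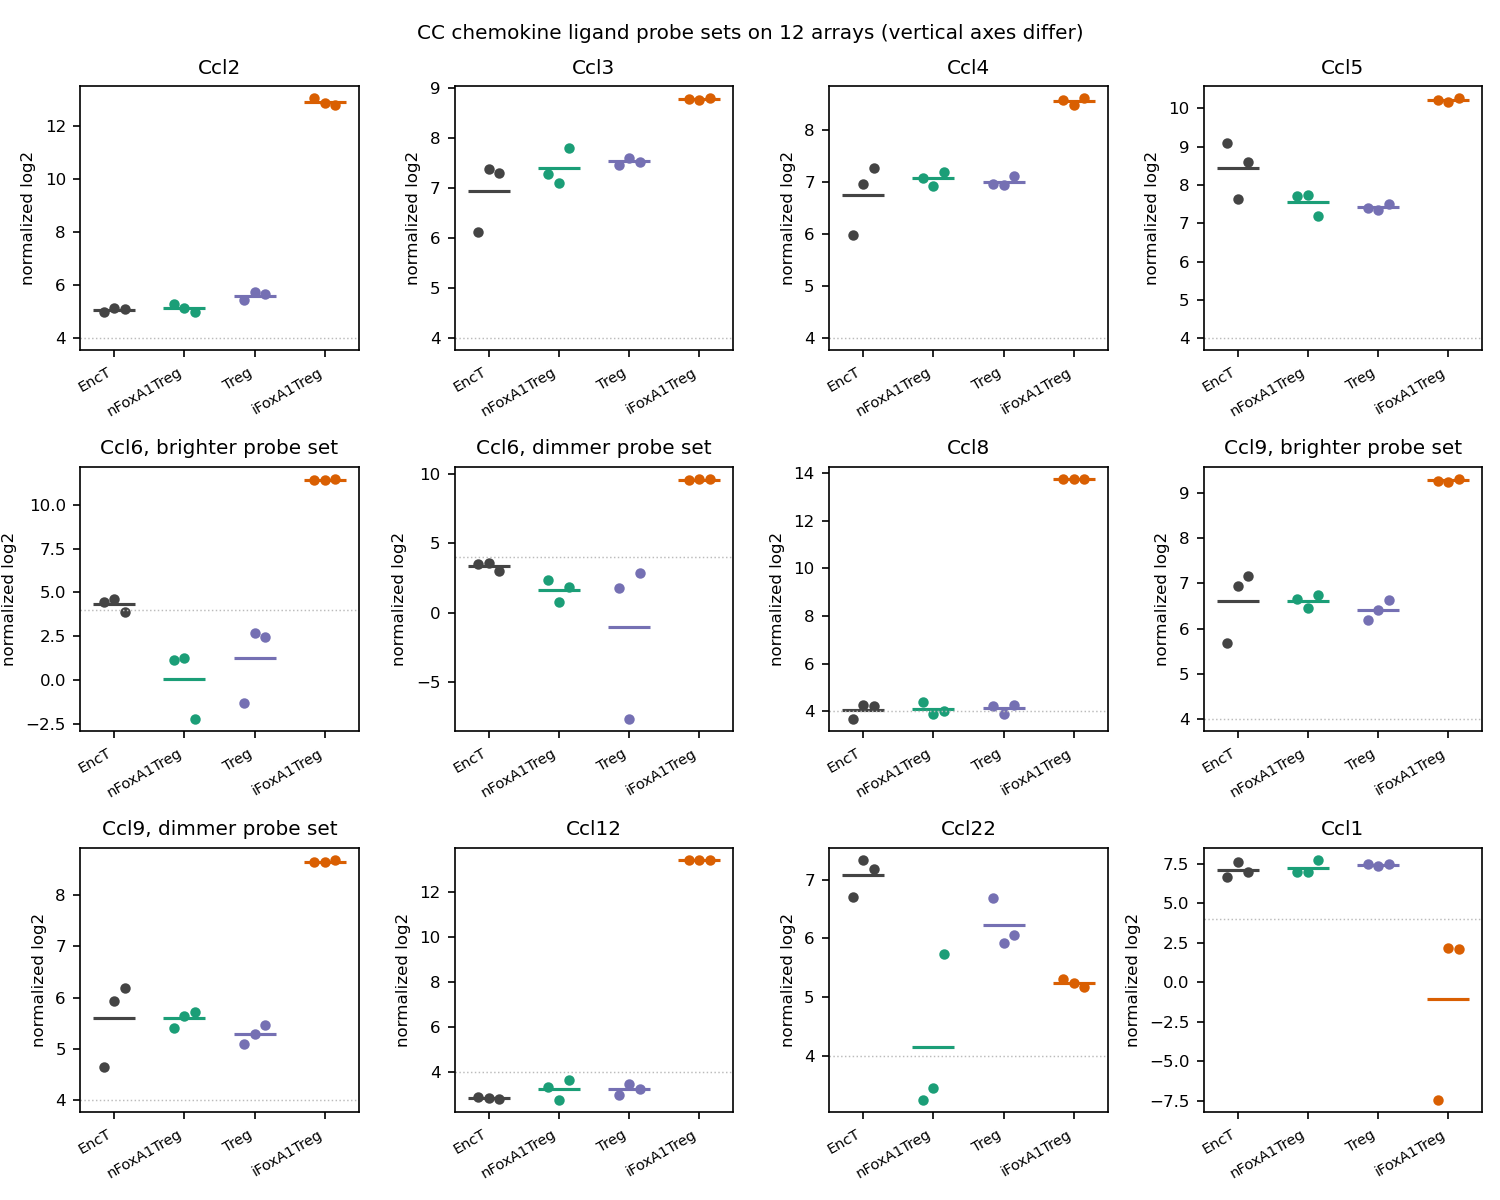
Normalized log2 value of each of the 12 ligand probe sets (vertical axis, its range differing between panels) on the 12 arrays by group, with points for arrays, bars for group means and a dotted line at a log2 value of 4. The arrays labelled iFoxA1Treg lie above all others for every probe set except Ccl22 and Ccl1, and EncT replicate 1 lies lowest of the EncT arrays for Ccl3, Ccl4 and Ccl9. For 58%, 61.1% and 61.3% of all probe sets the arrays labelled iFoxA1Treg did not overlap, in either direction, with EncT, Treg and nFoxA1Treg, each taken alone.

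Of the 10 genes 9 lie on chromosome 11 in 2 runs of neighbours in the RefSeq gene table (assembly GRCm38.p6), and Ccl22 lies on chromosome 8 beside Cx3cl1. In the first run Ccl12 and Ccl8 are neighbours, with Ccl11 on the other side of Ccl12 and Ccl1 on the other side of Ccl8, while Ccl2 lies beside Ccl7. The second run reads Ccl5, Ccl9, Ccl6, Ccl3 and Ccl4. The 250 bases before the annotated start of Ccl12, Ccl8 and Ccl1 are shown because, of the ligands, these 3 adjacent genes gave the widest differences from EncT in opposite directions on the arrays labelled iFoxA1Treg. They are written 5′ to 3′ on the strand of the gene, from chr11:82101595-82101844 (plus strand), chr11:82114935-82115184 (plus strand) and chr11:82179813-82180062 (minus strand) of GRCm38.p6, and capitals mark the letters matched, on either strand, by the 5 motifs searched.
Ccl12: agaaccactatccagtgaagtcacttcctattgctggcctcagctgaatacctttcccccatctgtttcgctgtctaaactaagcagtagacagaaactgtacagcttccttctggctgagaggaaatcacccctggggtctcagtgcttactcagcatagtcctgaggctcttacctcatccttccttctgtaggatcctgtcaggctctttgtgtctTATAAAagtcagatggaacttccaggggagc
Ccl8: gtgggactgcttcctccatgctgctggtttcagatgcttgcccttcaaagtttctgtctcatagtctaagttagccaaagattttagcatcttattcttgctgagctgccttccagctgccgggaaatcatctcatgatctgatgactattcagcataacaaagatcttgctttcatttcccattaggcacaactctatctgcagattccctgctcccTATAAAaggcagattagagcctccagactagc
Ccl1: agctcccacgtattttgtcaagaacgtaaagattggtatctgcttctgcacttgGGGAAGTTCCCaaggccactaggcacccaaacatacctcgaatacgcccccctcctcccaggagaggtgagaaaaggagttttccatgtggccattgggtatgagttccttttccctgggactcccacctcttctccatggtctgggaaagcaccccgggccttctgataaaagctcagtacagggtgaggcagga

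The Ccl12 and Ccl8 windows both held TATAAA, the core of the TATA box, at nearly the same distance, from 31 to 26 bases before the start in Ccl12 and from 32 to 27 in Ccl8. TATAAA occurred on either strand in 12.4% of all 32851 windows of this length. The Ccl1 window held a form of the NF-kappaB motif, GGGA and TTCC with any 2 bases between them, which 1.21% of all windows hold, as the letters GGGAAGTTCC from 196 to 187 bases before the start. The opposite strand matched too, 1 base further on, so both matches overlap. Windows of 7 of the 10 members were read. In these, TGANTCA, the AP-1 motif, was found once, in Ccl9, against 6.75% of all windows, and Ccl9 was also the third member with TATAAA, at 87 bases and further from its start. The core of the interferon-stimulated response element, GAAA repeated after any 2 bases, and TTCNNNGAA, the gamma-activated site, were found in 0 of 7, against 2.98% and 7.02% of all windows. Aligned end to end, the Ccl12 and Ccl8 windows shared 145 of 266 columns (54.5%), the highest of 21 pairs, which ran down to 43.6%. A match of letters is a description of these windows and was not tested for binding.

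Ccl2, Ccl12 and Ccl8, the monocyte chemoattractants, were dim in the 3 groups with T cell transcripts and far higher on the arrays labelled iFoxA1Treg. Ccl2 had values of 4.98, 5.14 and 5.09 in EncT, 5.31, 5.14 and 5.01 in nFoxA1Treg, 5.44, 5.73 and 5.67 in Treg, and 13.04, 12.87 and 12.80 on the arrays labelled iFoxA1Treg. The 3 Treg arrays were above all EncT and nFoxA1Treg arrays, and the arrays labelled iFoxA1Treg were far above all. Ccl2 was higher in Treg than in EncT by 0.54 (SE 0.10, 1.46-fold, adjusted p = 0.00793, limma) and by 0.39 on the offset scale (adjusted p = 0.0104). Without the arrays labelled iFoxA1Treg the difference was 0.56 (adjusted p = 0.0374), and with the EncT and Treg arrays alone the call was lost (adjusted p = 0.0643). In nFoxA1Treg Ccl2 differed from EncT by 0.083 (SE 0.10, adjusted p = 0.743). The arrays labelled iFoxA1Treg had Ccl2 higher than EncT by 7.84 (SE 0.10, adjusted p = 7.43e-14), or 155-fold on the offset scale.

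Ccl12 had values of 2.87, 2.83 and 2.78 in EncT, 3.32, 2.71 and 3.63 in nFoxA1Treg, 2.96, 3.44 and 3.21 in Treg, and 13.44, 13.42 and 13.44 on the arrays labelled iFoxA1Treg. The first 3 groups lay below a log2 value of 4, and the arrays labelled iFoxA1Treg did not overlap with them. The difference from EncT on those arrays was 10.60 (SE 0.19, adjusted p = 1.05e-12), or 8.90 on the offset scale. Against EncT, the Treg difference of 0.37 (SE 0.19, adjusted p = 0.329) and the nFoxA1Treg difference of 0.39 (SE 0.19, adjusted p = 0.288) did not pass. On the offset scale these differences were 0.13 and 0.14, without a call. Ccl8 ran from 3.67 to 4.25 in EncT, from 3.88 to 4.38 in nFoxA1Treg and from 3.91 to 4.28 in Treg, and these 3 groups overlapped. Ccl8 on each of the 3 arrays labelled iFoxA1Treg took the same rank among all probe sets, so that quantile normalization gave 13.74 on all 3, where the deposited values were 14.10, 14.17 and 14.14. The difference from EncT was 9.69 (SE 0.17, adjusted p = 6.56e-13), or 8.71 on the offset scale.

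Ccl3, Ccl4 and Ccl5, the inflammatory ligands, were all measured well above the floor in T cells, and of the 3 only Ccl5 passed the test between a regulatory group and EncT, in Treg. Ccl5 had values of 9.11, 7.64 and 8.61 in EncT, 7.72, 7.74 and 7.20 in nFoxA1Treg, 7.39, 7.35 and 7.51 in Treg, and 10.23, 10.17 and 10.27 on the arrays labelled iFoxA1Treg. The EncT arrays spread over more than 1 log2 unit, the lowest of them overlapped with nFoxA1Treg, and all 3 were above the Treg arrays. In Treg Ccl5 fell by 1.04 on the log2 scale (SE 0.27, 2.05-fold, adjusted p = 0.0424, limma) and by 0.98 on the offset scale (adjusted p = 0.0157). This call was lost in 8 of 15 other settings, among them the fit without the arrays labelled iFoxA1Treg (adjusted p = 0.0717) and the fit without EncT replicate 1 (difference -0.71, adjusted p = 0.116). In nFoxA1Treg the difference was -0.90 (SE 0.27, adjusted p = 0.0666), which passed on the offset scale (-0.85, adjusted p = 0.0295) and without EncT replicate 2 (-1.31, adjusted p = 7.89e-04). It was -0.58 without EncT replicate 1 (adjusted p = 0.206) and -0.89 without the arrays labelled iFoxA1Treg (adjusted p = 0.103). Between nFoxA1Treg and Treg Ccl5 differed by 0.14 (SE 0.27, adjusted p = 0.9999).

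Ccl3 had values of 6.12, 7.38 and 7.30 in EncT, 7.28, 7.11 and 7.79 in nFoxA1Treg, 7.47, 7.61 and 7.52 in Treg, and 8.79, 8.76 and 8.80 on the arrays labelled iFoxA1Treg. Ccl4 had values of 5.99, 6.96 and 7.28 in EncT, 7.08, 6.92 and 7.20 in nFoxA1Treg, 6.96, 6.94 and 7.11 in Treg, and 8.56, 8.47 and 8.61 on the arrays labelled iFoxA1Treg. For both genes EncT replicate 1 was about 1 log2 unit below the other EncT arrays, and the rest of the T cell arrays lay close together. The Treg difference of Ccl3 from EncT was 0.60 (SE 0.27, adjusted p = 0.248) and became 0.19 without EncT replicate 1. The nFoxA1Treg differences from EncT were 0.46 for Ccl3 (SE 0.27, adjusted p = 0.392) and 0.33 for Ccl4 (SE 0.24, adjusted p = 0.517). Ccl3 on the arrays labelled iFoxA1Treg was higher than in EncT by 1.85 (SE 0.27), Ccl4 by 1.81 (SE 0.24) and Ccl5 by 1.77 (SE 0.27), with adjusted p-values of 9.52e-05, 3.77e-05 and 1.52e-04.

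EncT replicate 1 stood apart from the other EncT arrays for several ligands, in both directions. It was lower than the mean of EncT replicates 2 and 3 by 1.23 for Ccl3, 1.13 for Ccl4, 1.36 for Ccl9, 0.64 for Ccl1, 0.57 for Ccl8 and 0.55 for Ccl22, and higher by 0.98 for Ccl5. The summed linear level of 9 markers of CD8 T and NK cells, cells that also make Ccl3, Ccl4 and Ccl5, was 3271 on this array against 6621 and 7606 on the other EncT arrays, 5939 to 6157 in nFoxA1Treg and 6194 to 6362 in Treg. On this array Ccl5 went the other way from that sum. In nFoxA1Treg and in Treg 1 of these 9 markers was lower than in EncT and 0 were higher. The part of these cells in the ligand differences was not tested.

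Ccl6 and Ccl9, ligands of Ccr1 that stand side by side on the chromosome, differed in what they showed. The brighter Ccl6 probe set had values of 4.47, 4.62 and 3.87 in EncT, 1.15, 1.25 and -2.23 in nFoxA1Treg, -1.28, 2.69 and 2.46 in Treg, and 11.44, 11.41 and 11.47 on the arrays labelled iFoxA1Treg. Every EncT array was above every nFoxA1Treg and Treg array, all of which lay in the noisy range near the floor. Ccl6 fell by 4.27 on the log2 scale in nFoxA1Treg against EncT (SE 1.02, adjusted p = 0.0238, limma), and on the offset scale the difference was -1.04 (2.06-fold, adjusted p = 1.17e-04). The call was lost without EncT replicate 1 (adjusted p = 0.0702), without nFoxA1Treg replicate 3 (adjusted p = 0.0661) and without the intensity trend (adjusted p = 0.0781). It held without the arrays labelled iFoxA1Treg (difference -4.00, adjusted p = 0.0416). In Treg against EncT the difference was -3.03 (SE 1.02, adjusted p = 0.108) and, on the offset scale, -0.86 (adjusted p = 6.65e-04), which passed.

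The dimmer Ccl6 probe set ran from 2.99 to 3.56 in EncT, from 0.79 to 2.36 in nFoxA1Treg and from -7.72 to 2.84 in Treg. It did not pass on the log2 scale in nFoxA1Treg (-1.71, adjusted p = 0.728) or Treg (-4.40, adjusted p = 0.248), and it passed in both on the offset scale, by -0.44 (adjusted p = 0.0373) and -0.45 (adjusted p = 0.0383). The brighter Ccl6 probe set was higher on the arrays labelled iFoxA1Treg than in EncT by 7.12 (SE 1.02, adjusted p = 7.98e-05), or 6.27 on the offset scale. Ccl9 had values of 5.70, 6.95 and 7.17 in EncT, 6.67, 6.45 and 6.75 in nFoxA1Treg, 6.20, 6.43 and 6.64 in Treg, and 9.27, 9.25 and 9.31 on the arrays labelled iFoxA1Treg. The nFoxA1Treg and Treg arrays all lay within the range of the EncT arrays. The Treg difference of -0.18 (SE 0.29, adjusted p = 0.818) became -0.64 without EncT replicate 1 and then passed (adjusted p = 0.0162). Both Ccl9 probe sets were higher on the arrays labelled iFoxA1Treg than in EncT, by 2.67 (SE 0.29) and 3.06 (SE 0.30).

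Ccl22, the ligand of Ccr4, showed the largest fall of a ligand in nFoxA1Treg on the offset scale and had its highest level in EncT. Its values were 6.71, 7.33 and 7.18 in EncT, 6.69, 5.91 and 6.07 in Treg, 5.30, 5.23 and 5.17 on the arrays labelled iFoxA1Treg, and 3.24, 3.45 and 5.74 in nFoxA1Treg. All EncT arrays were above all others, although Treg replicate 1 lay just under the lowest of them, and nFoxA1Treg replicate 3 lay well above the other nFoxA1Treg arrays. Against EncT, Ccl22 fell by 2.93 in nFoxA1Treg (SE 0.50, adjusted p = 0.00428, limma), and on the offset scale the difference was -2.06 (4.17-fold, adjusted p = 3.49e-04). The call held in all 15 other settings, with adjusted p-values up to 0.0416. In Treg against EncT the difference was -0.85 (SE 0.50, adjusted p = 0.405).

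The test of nFoxA1Treg against Treg gave a Ccl22 difference of -2.08 (SE 0.50), with an adjusted p of 0.988 over all probe sets. On the offset scale the difference was -1.33 and did not pass either (adjusted p = 0.402, limma). On the log2 scale, leaving out nFoxA1Treg replicate 3 gave -2.88 and an adjusted p of 6.72e-04, so this array decides the call. Ccl22 on the arrays labelled iFoxA1Treg fell by 1.84 against EncT (SE 0.50, adjusted p = 0.00891), and the differences from Treg (-0.99, adjusted p = 0.127) and from nFoxA1Treg (1.10, adjusted p = 0.0908) did not pass. The former passed on the offset scale (-0.76, adjusted p = 0.0338), and the latter did not (0.57, adjusted p = 0.106). Neighbours in the order EncT, Treg, iFoxA1Treg, nFoxA1Treg thus did not pass on the log2 scale in the fit over all arrays without array weights. With the iFoxA1Treg and Treg arrays alone, the difference from Treg passed (-0.97, adjusted p = 0.00267, limma). The difference from nFoxA1Treg passed with array weights (1.44, adjusted p = 0.0170, limma). It also passed without nFoxA1Treg replicate 3, at 1.90 (adjusted p = 3.5e-05).

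**Figure D2:**
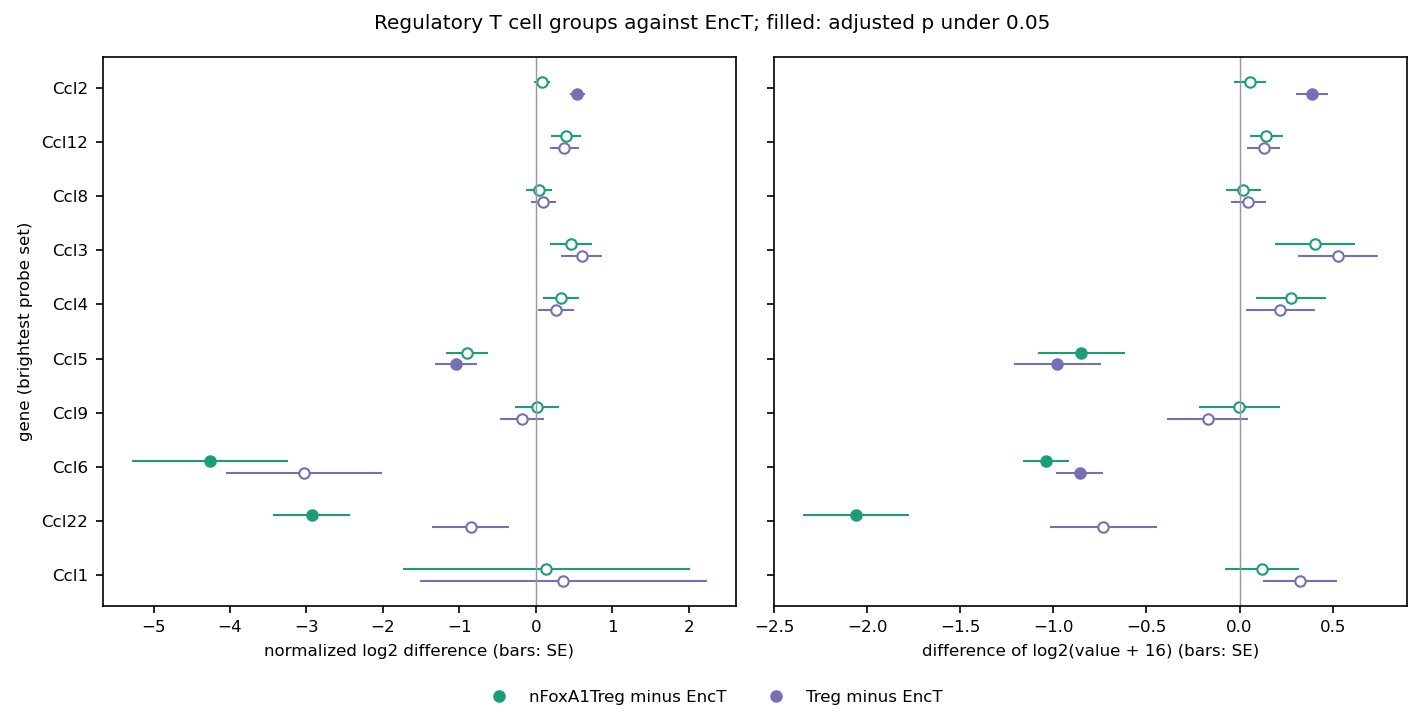
Difference of each ligand from EncT in nFoxA1Treg and in Treg (horizontal axis, log2 on the left and the offset scale on the right; bars are standard errors; filled points have an adjusted p under 0.05). On the log2 scale Ccl22 and Ccl6 in nFoxA1Treg and Ccl2 and Ccl5 in Treg are filled, and on the offset scale Ccl5 in nFoxA1Treg and Ccl6 in Treg join them.

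Some markers of antigen-presenting cells were lower than in EncT, as Ccl6 and Ccl22 were in nFoxA1Treg. In nFoxA1Treg against EncT 0 of 22 macrophage, microglia and monocyte markers were higher and 7 lower, and on the offset scale 0 and 9. They were led by Clec7a (fell by 3.65, SE 0.29), Lyz2 (fell by 3.92, SE 0.50) and Fcer1g (fell by 2.55, SE 0.47). Lyz2 and Fcer1g lay below a log2 value of 4 on all nFoxA1Treg arrays, so the sizes of their falls are uncertain. Of 13 dendritic cell and MHC class II markers 0 were higher and 4 lower, namely H2-Aa, Cd74, H2-Ab1 and H2-Eb1, which serve antigen presentation. In Treg against EncT 4 of 22 and 1 of 13 were lower and 0 higher. With the iFoxA1Treg arrays left out of the fit, the lower markers were 4 of 22 and 4 of 13 in nFoxA1Treg, and 3 of 22 and 0 of 13 in Treg. The summed linear level of the macrophage list ran from 2185 to 3454 in EncT, from 1435 to 2478 in nFoxA1Treg and from 2138 to 2480 in Treg. That of the dendritic cell list ran from 817 to 1005, from 498 to 748 and from 708 to 780. In nFoxA1Treg replicate 3 both sums were the highest of the group, at 2478 and 748 against at most 1520 and 515, and this array also had the highest Ccl22 of the group and the lowest value of the brighter Ccl6 probe set. The macrophage sum in these groups rests mainly on Ctss, a protease. Without Ctss the sums were 660, 724 and 563 in EncT, 376, 388 and 415 in Treg, and 353, 334 and 392 in nFoxA1Treg. Among the nFoxA1Treg arrays Fcer1g was lowest on replicate 3, at 1.18 against 2.33 and 3.48. The defining macrophage marker Lyz2 was at 5.18 ± 0.66 in EncT, 1.25 ± 0.95 in nFoxA1Treg and 2.59 ± 0.90 in Treg (SD, n = 3). The part of such cells in the Ccl6 and Ccl22 differences was not tested.

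Ccl1, a ligand of Ccr8, had similar levels in the 3 groups with T cell transcripts and was near the floor on the arrays labelled iFoxA1Treg. Its values were 6.67, 7.60 and 7.01 in EncT, 6.97, 6.97 and 7.74 in nFoxA1Treg, 7.50, 7.34 and 7.51 in Treg, and -7.48, 2.18 and 2.11 on the arrays labelled iFoxA1Treg. The first 3 groups overlapped, and the last did not reach them. The single value of -7.48 widens the shared estimate of the spread, so the nFoxA1Treg and Treg differences from EncT of 0.14 and 0.36 carry an SE of 1.88. On the offset scale they were 0.12 and 0.32, with an SE of 0.20 and without a call. On the arrays labelled iFoxA1Treg Ccl1 fell by 8.16 against EncT (SE 1.88, adjusted p = 0.00299), or by 3.02 on the offset scale (8.12-fold, adjusted p = 1.74e-09).

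Over the 10 genes, each read by its brightest probe set, the median difference of the arrays labelled iFoxA1Treg was 2.26 from EncT, 2.83 from Treg and 2.66 from nFoxA1Treg, against medians over all probe sets of -0.0056, -0.016 and -0.023. The ligands fell into 3 sizes. Ccl2, Ccl6, Ccl8 and Ccl12 were higher than in EncT by at least 6.27 on the offset scale, Ccl3, Ccl4, Ccl5 and Ccl9 by 1.65 to 2.47, and Ccl22 and Ccl1 were lower. Of the 28 calls of single genes on these arrays, every one held in all 14 other settings. The summed linear level of the 22 macrophage, microglia and monocyte markers was 41685 to 41709 on these arrays against at most 3454 elsewhere, and Lyz2 was at 12.36 ± 0.057. B cell markers (26819 to 29061 against at most 275), neutrophil markers (32338 to 32504 against at most 57.1) and dendritic cell and MHC class II markers (16340 to 17054 against at most 1005) were high as well. Their part in the ligand levels was not tested, and cell makeup, sex of the source and induction with IFN-beta cannot be told apart on these arrays. The medians in nFoxA1Treg and Treg against EncT were 0.063 and 0.18, against 0.011 and 0.0085 over all probe sets.

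**Figure D3:**
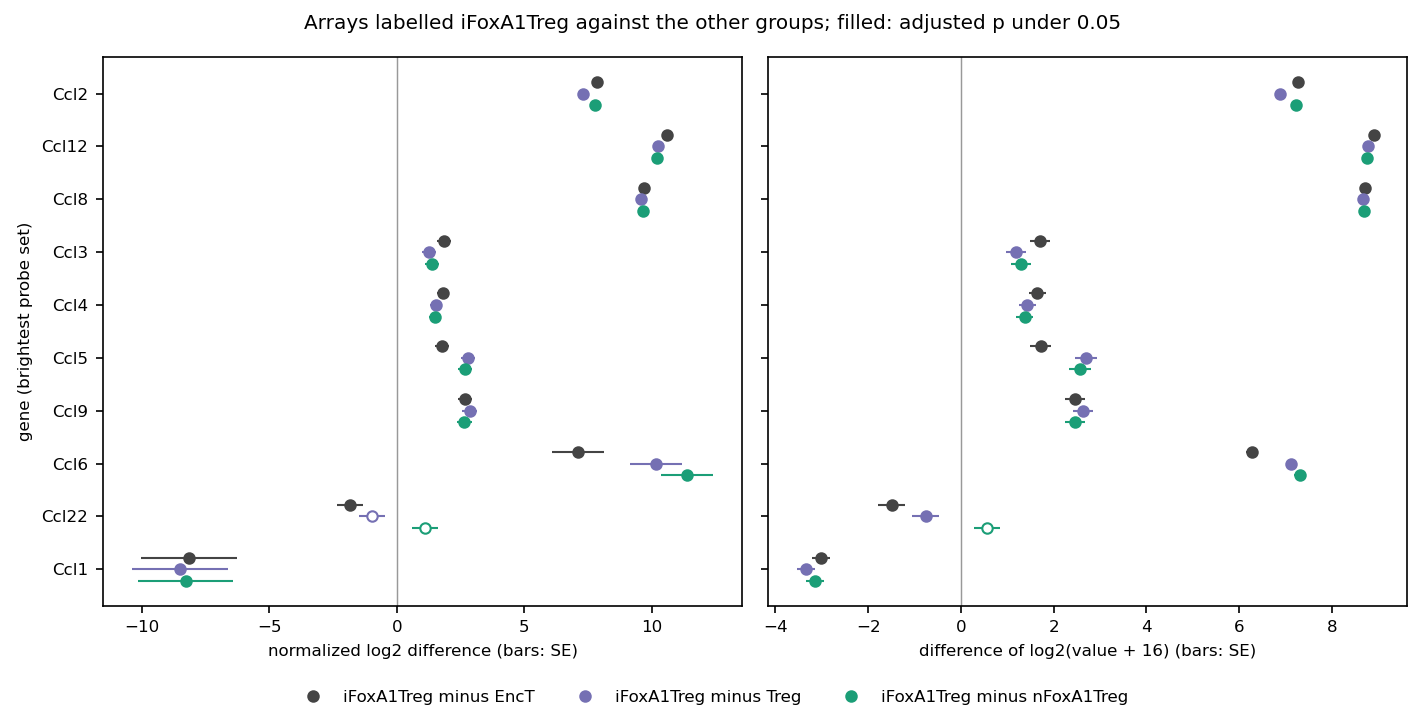
Difference of each ligand on the arrays labelled iFoxA1Treg from EncT, Treg and nFoxA1Treg (horizontal axis, log2 on the left and the offset scale on the right; bars are standard errors; filled points have an adjusted p under 0.05). Ccl2, Ccl12, Ccl8 and Ccl6 lie farthest to the right, Ccl1 farthest to the left, and Ccl22 changes side between the comparisons with EncT and nFoxA1Treg.

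Among 22419 probe sets of other genes above the level of 4.05, those with the most similar profile were found by the root mean square distance in log2 after each profile's own mean was taken off. This describes likeness over arrays that share their group labels and, over all 12, the gap to the arrays labelled iFoxA1Treg. Over the 9 arrays of EncT, nFoxA1Treg and Treg, Ccl22 was nearest to the MHC class II genes H2-Eb1 (0.356) and H2-Ab1 (0.458) and to the immunoglobulin gene Igkv8-30 (0.528), where its own root mean square deviation was 1.42. H2-Eb1 had values of 5.85, 6.35 and 6.10 in EncT, 2.59, 3.34 and 5.55 in nFoxA1Treg and 5.49, 5.22 and 5.47 in Treg, so nFoxA1Treg replicate 3 was again the highest of its group. On the arrays labelled iFoxA1Treg the profiles parted, with H2-Eb1 at 12.14 to 12.20 and Ccl22 at 5.17 to 5.30.

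Ccl5 was nearest to Pdk1 (0.150), a kinase of pyruvate dehydrogenase, to Kdm4b (0.155), a histone demethylase, and to Slc2a3 (0.156), a glucose transporter. The deviation of Ccl5 itself was 0.597. All 4 profiles were highest on EncT replicate 1. The 3 nearest probe sets of Ccl22 and of Ccl5 were the same when the level was set over the 9 arrays alone, a choice made after seeing the data. Ccl6 and Ccl12 lay below that level, and their nearest profiles are not given. Over all 12 arrays Ccl3 and Ccl4, neighbours on the chromosome, were nearest to each other (0.190). That likeness includes the gap to the arrays labelled iFoxA1Treg. Over the 9 arrays neither was among the 3 nearest of the other. There Ccl3 was nearest to Jcad (0.145) and Ccl4 to Uchl1 (0.129).

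**Figure D4:**
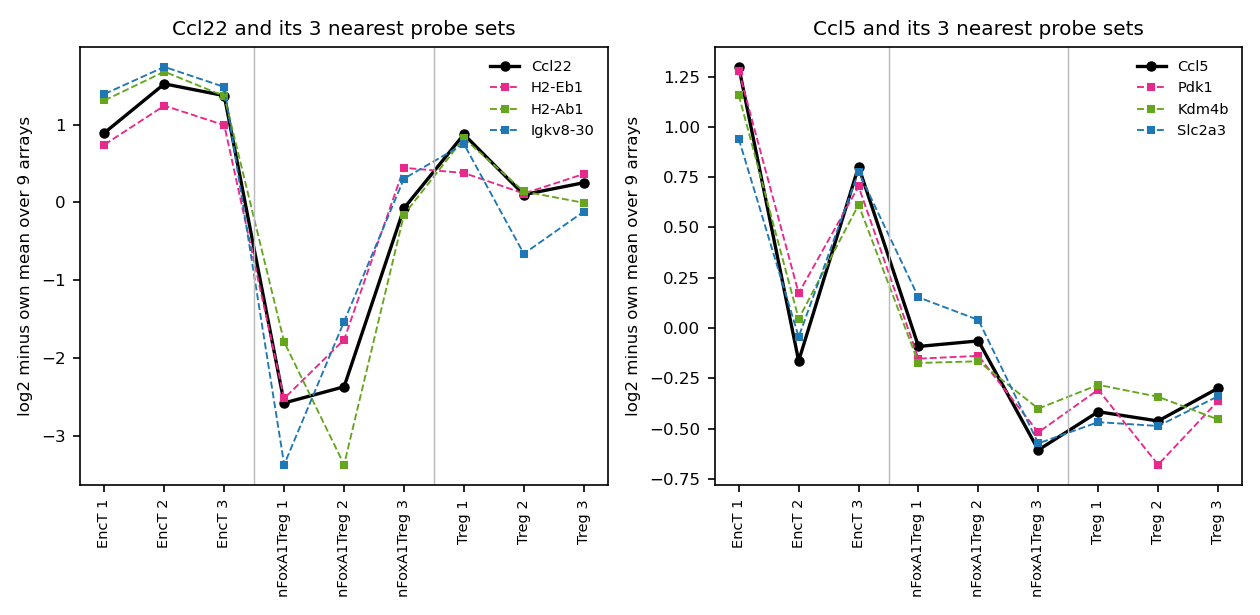
Profiles of Ccl22 and Ccl5 (black) and of their 3 nearest probe sets over 9 arrays (horizontal axis, replicates of EncT, nFoxA1Treg and Treg in no order), as the log2 value minus each profile's own mean (vertical axis). Ccl22 and the MHC class II genes drop together on nFoxA1Treg replicates 1 and 2 and less on replicate 3, and Ccl5 and its neighbours peak on EncT replicate 1.

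Of 14 other CC ligands listed 8 were measured by a probe set of their own, and between the 3 groups with T cell transcripts 0 of 8 passed in any comparison by limma, with 0 at an unadjusted p under 0.05 and 0 on the offset scale. Ccl7, a monocyte chemoattractant and the neighbour of Ccl2, was at 2.76 ± 0.35 in EncT, 2.77 ± 0.68 in nFoxA1Treg, 3.03 ± 0.63 in Treg and 9.61 ± 0.090 on the arrays labelled iFoxA1Treg (SD, n = 3). Its difference from EncT on those arrays was 6.85 (SE 0.36), or 5.12 on the offset scale, while Ccl17, Ccl24 and Ccl25 were lower. Ccl17, the other ligand of Ccr4, was at 3.95 ± 0.38 in EncT and 3.25 ± 0.16 in nFoxA1Treg, and its difference of -0.70 did not pass (adjusted p = 0.359).

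Few receptors differed between the T cell groups, and by at most about 1 log2 unit where they passed. Of 14 CC receptors measured 3 were lower and 0 higher in nFoxA1Treg than in EncT, namely Ccr2, the receptor of Ccl2 and Ccl12 (fell by 0.53, SE 0.12, adjusted p = 0.0211), Ccr1 (fell by 0.30, SE 0.073, adjusted p = 0.0246) and Ccrl2 (fell by 0.75, SE 0.19, adjusted p = 0.0302). Without the arrays labelled iFoxA1Treg the Ccrl2 call was lost (adjusted p = 0.0621). In Treg 3 were lower and 1 higher, Ccr7, which guides T cells to lymph nodes (higher by 0.53, SE 0.12, adjusted p = 0.0195), with Ccrl2 falling furthest (difference -0.98, SE 0.19, adjusted p = 0.0102). There the Ccr2 difference (-0.49, adjusted p = 0.0359) did not pass without the arrays labelled iFoxA1Treg (adjusted p = 0.0562). Between nFoxA1Treg and Treg 0 of 14 passed, with 0 at an unadjusted p under 0.05 and 0 on the offset scale. Against EncT, the arrays labelled iFoxA1Treg had 5 of 14 receptors higher (Ccr7, Ccrl2, Ccr6, Ccr10 and Ackr2) and 3 lower (Ccr8, Ccr4 and Ccr2). Of all probe sets 49.5% passed in this comparison, 22.1% higher and 27.4% lower. On the arrays labelled iFoxA1Treg Ccr8 fell from 7.70 ± 0.80 to 0.96 ± 1.14 (difference -6.74, SE 0.49, or -3.62 on the offset scale). Ccl1, a ligand of Ccr8, was lower there too. Ccr7 was higher by 3.06 (SE 0.12) and Ccrl2 by 2.44 (SE 0.19). Ccr8 itself differed from EncT by 0.0084 in nFoxA1Treg (adjusted p = 0.997) and by 0.38 in Treg (adjusted p = 0.767).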

How the data were processed

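Total RNA extracted with Trizol and treated with DNase was amplified by a one-cycle 3′ protocol and hybridised as biotin-labelled cRNA, per the labels' protocols. The submitters' processing notes name PLIER, a probe set summary method. Its version is not given in the sources used here. The table deposited by the authors holds log2 values, the log base being read from their range (-14.77 to 15.66). Array medians ran from 4.64 to 4.84. The annotation gives 34945 probe sets 1 gene, 932 several and 9160 none.

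Values were quantile normalized and fitted with limma 3.58.1 in R 4.3.3. The fit had a mean for each group, all 12 arrays, 8 residual degrees of freedom and eBayes with an intensity trend. Tests were two-sided, with Benjamini-Hochberg adjustment over all probe sets of each of 6 comparisons. The procedure was tested on simulated data. The number of arrays limits the precision. For the offset scale, 16 was added to the linear value before log2, normalization and fit. Over all 18 same-numbered pairs of replicates, correlations of deviations from group means ran from -0.19 to 0.21 (median -0.0074, 3 over 0.1). Differently numbered pairs had a median of -0.0068 (36 pairs, 4 over 0.1), so no block was used. Between EncT and Treg the same-numbered pairs were all positive (0.21, 0.13 and 0.083), against -0.17 to 0.041 for other pairs. Between EncT and nFoxA1Treg the same-numbered pairs ran from -0.19 to 0.022. A replicate block kept the Treg calls against EncT for Ccl2 (adjusted p = 0.0167, limma) and Ccl5 (adjusted p = 0.0481).

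The members and lists were chosen with earlier results of these data known. Named were every member, the 3 genes of each list with the smallest adjusted p in a comparison and the 3 nearest profiles. Other called genes of short counts, and Ccr8 in the T cell groups, were named after their values were seen. Marker lists of fibroblasts with endothelium and of neurons with glia had 0 of 7 and 0 of 7 called in nFoxA1Treg against EncT. In Treg 1 of the former was higher and 1 of the latter lower. Without the arrays labelled iFoxA1Treg these counts in Treg were 1 and 0. Promoter windows came from RefSeq (GRCm38.p6), cut to the 250 bases before the start, and were aligned with Biopython 1.88. Alternatives were other scales and normalizations, a filter on dim probe sets, fewer arrays, array weights, no trend, a replicate block and each array left out.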

Additional observations from a re-analysis of the deposited data

How the results depend on the processing

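Of 32 called gene differences, 29 held in every other setting run, and of their 452 alternative values 440 kept the call, 12 lost it and 0 reversed. The counts of ligand probe sets called against EncT moved from 2 in nFoxA1Treg and 2 in Treg to 4 and 4 on the offset scale and to 1 and 1 without the trend. In Treg the count was 0 with the EncT and Treg arrays alone and 1 without the arrays labelled iFoxA1Treg. Leaving out single arrays gave 1 to 3 ligand probe sets in both comparisons, 0 to 1 in nFoxA1Treg against Treg, and 11 to 12, 11 to 11 and 11 to 12 on the arrays labelled iFoxA1Treg against EncT, Treg and nFoxA1Treg. Over all probe sets, 3905 calls in nFoxA1Treg against EncT became 1606 with 2 groups, 1976 without the trend and 2132 to 4821 leaving out arrays. In Treg against EncT 3090 became 1607, 1403, 4877 with array weights and 1430 to 4147. In nFoxA1Treg against Treg 8 became 2 in the upper 60%, 4 with 2 groups, 5 without the arrays labelled iFoxA1Treg, 5 with the replicate number as a block and 10 to 51 leaving out arrays. On the arrays labelled iFoxA1Treg the ranges were 20272 to 21253, 20676 to 21482 and 20808 to 21726 against EncT, Treg and nFoxA1Treg. The replicate block gave 2, 2, 0, 12, 11 and 11 ligand probe sets in the 6 comparisons and changed no call of a member. The cause of these moves was not tested, and some of the fits also had fewer arrays. Reversals touched uncalled differences only. Ccl9 in nFoxA1Treg against EncT was -0.0023 on the offset scale, -0.011 as deposited and -0.29 with array weights, where Ccl8 was -0.041. Ccl12 in nFoxA1Treg against Treg was -0.037 as deposited, -0.018 with centred medians and -0.087 with weights. Leaving out single arrays, the values against EncT in nFoxA1Treg ran from -0.049 to 0.59 for Ccl4, -0.15 to 0.15 for Ccl8, -0.44 to 0.30 for Ccl9 and -0.12 to 0.39 for Ccl1. In Treg against EncT they ran from -0.11 to 0.53 for Ccl4, -0.092 to 0.22 for Ccl8 and -0.64 to 0.10 for Ccl9. In nFoxA1Treg against Treg they ran from -0.34 to 0.0043 for Ccl3, -0.0034 to 0.14 for Ccl4, -0.20 to 0.048 for Ccl8 and -0.19 to 0.27 for Ccl12.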

Other observations

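Secreted products of activated T cells other than the CC ligands were measured for 15 of 16 listed genes. In nFoxA1Treg against EncT 0 were higher and 3 lower, Fasl (difference -0.93 on the offset scale), the death ligand of cytotoxic T cells, Csf2 (fell by 2.06, SE 0.31), the growth factor GM-CSF, and Tnf (fell by 1.13, SE 0.18). The same 3 genes were the ones lower in Treg, Fasl by -0.79 on the offset scale, Csf2 by -1.45 and Tnf by -1.17 on the log2 scale. With the iFoxA1Treg arrays left out of the fit, 4 were lower in nFoxA1Treg, with Il13 added, and 3 in Treg. Between nFoxA1Treg and Treg 0 of 15 passed by limma, with 0 at an unadjusted p under 0.05 and 0 on the offset scale. Both comparisons share the EncT arrays.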
